A study of Homo sapiens with 6 samples.

Results

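Paraspeckles are nuclear bodies built on the long NEAT1 transcript, NEAT1_2, onto which RNA-binding proteins assemble. The genes described here encode 9 of these core proteins, NONO, SFPQ, PSPC1, RBM14, EWSR1, TAF15, DAZAP1, CPSF6 and NUDT21. The rule that chose them names known proteins of paraspeckles and uses no measured value, but it was set with earlier results of these data known. All 9 were found, each as 1 row, among the 20522 genes listed per library.

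NONO, SFPQ and PSPC1 form the DBHS family, whose members pair with each other as dimers and bind along NEAT1_2. RBM14, DAZAP1, EWSR1 and TAF15 are further RNA-binding proteins of the body, and RBM14, EWSR1 and TAF15 carry prion-like domains. CPSF6 and NUDT21 are the large and small subunits of CFIm, the complex that helps choose polyadenylation sites, including the early site at which the short NEAT1 transcript ends. NEAT1_2 is made when that early site is passed over. Without NEAT1_2 there is no paraspeckle, while the proteins themselves have other nuclear roles and remain in the nucleoplasm.

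The samples were 6 mRNA-seq libraries of K1, a cell line from a papillary thyroid carcinoma, with 3 libraries in each of 2 groups. NC cells were transfected with a negative control siRNA and si-NEAT1_2 cells with an siRNA against the long transcript, with no other treatment, dose or time given in the labels. The comparison asks whether the mRNAs of the paraspeckle proteins differed once their scaffold had been targeted. NEAT1 was not analysed here, so the knockdown was not checked in these libraries. Both groups are 1 line transfected with 1 siRNA each, and nothing in the labels says that the libraries came from separate cultures, so p-values measure only the spread between these libraries.

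Total expected counts ranged from 22798631 to 27066025 per library, and the 9 genes together took 0.183% to 0.192% of them. The si-NEAT1_2 replicate 2 library stood apart, with the lowest share of mitochondrial counts (1.922%, against 2.478% to 3.766% in the others) and the lowest TMM scaling factor (0.922, against 0.995 to 1.03). Of the thyroid markers, PAX8 was at 113 to 169 FPKM and FOXE1 at 5.75 to 8.78 FPKM, whereas NKX2-1 and TSHR did not exceed 0.08 FPKM in any library. KRT8 was above 1149 FPKM in every library, PTPRC, PECAM1 and VWF did not exceed 0.12 FPKM, and CD68 was at 11.6 to 19.6 FPKM. Levels are given below as TMM-scaled CPM, a count scaled to the library's size and composition, for comparing libraries, and as FPKM, which also divides by transcript length, for comparing genes.

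NONO had the highest level of the 9 genes and PSPC1 the lowest. Over the 6 libraries the mean FPKM was 191 ± 8.64 (SD, n = 6) for NONO, 130 ± 5.15 for EWSR1, 110 ± 11.8 for DAZAP1, 90.6 ± 2.94 for SFPQ and 71.6 ± 6.63 for TAF15. Below these came NUDT21 at 50.7 ± 5.83, RBM14 at 37.3 ± 2.07, CPSF6 at 29 ± 2.47 and PSPC1 at 25.5 ± 1.05. Each gene stood above the next in all 6 libraries, except that CPSF6 stood above PSPC1 in 5. The ranges of neighbours in this order overlapped for EWSR1 and DAZAP1 and for CPSF6 and PSPC1, and for no other pair of neighbours. The partners in a complex therefore differed in level, with NONO over SFPQ over PSPC1 and NUDT21 over CPSF6 in each library.

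**Figure D1:**
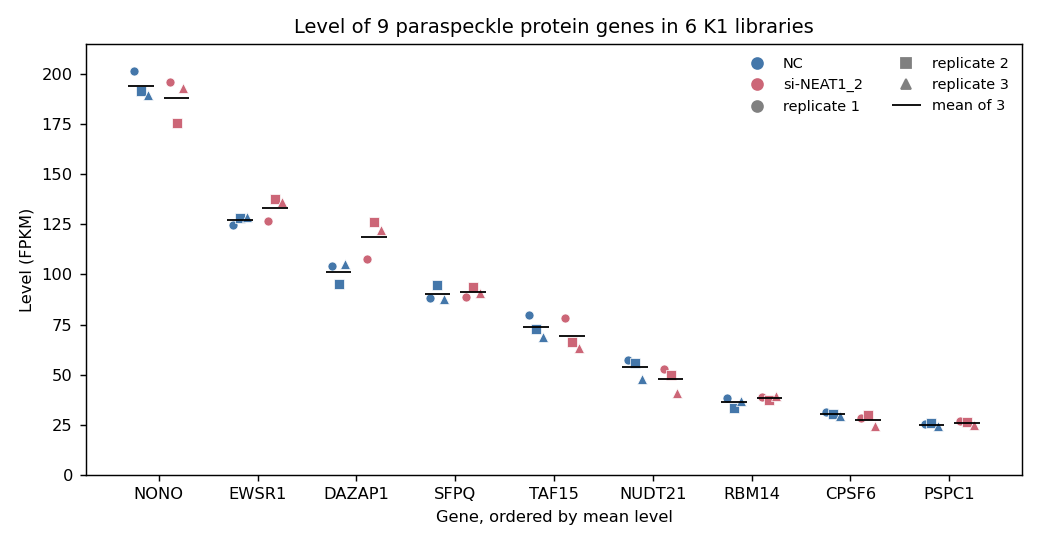
Level in FPKM (y axis, from 0) of the 9 genes (x axis, ordered by mean level) in the 3 NC and 3 si-NEAT1_2 libraries, where points are libraries and lines are group means. NONO lay between 175.71 and 201.31 FPKM and PSPC1 between 24.2 and 26.96 FPKM, and DAZAP1 is the gene whose si-NEAT1_2 points all lie above its NC points.

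All 9 genes passed the filter on low counts, and none was called between si-NEAT1_2 and NC, a call being an adjusted p under 0.05 together with a change of 2-fold or more. With the quasi-likelihood test of edgeR 0 of 9 passed, against 0.0% of all 13109 genes tested, and the whole table held no call to set them against. In bulk RNA, fewer cells of a kind and less RNA per cell cannot be told apart. At an unadjusted p under 0.05, 1 of 9 was higher (DAZAP1) and 0 were lower, against 11.2% and 12.9% of all genes, and with DESeq2 the counts were 0 and 0. The log2 fold change was above 0 for 7 genes and below 0 for CPSF6 and NUDT21. Its median was 0.08, against 0.01 over all genes. The si-NEAT1_2 libraries lay above all NC libraries in CPM for 3 of 9 genes (PSPC1, EWSR1 and DAZAP1) and below them for 0, against 15.4% and 14.1% of all genes. On the FPKM scale DAZAP1 was the only member without overlap. FPKM does not carry the TMM factor, and it divides by a transcript length that can differ between libraries. The si-NEAT1_2 replicate 2 library held the highest CPM of 5 of the 9 genes.

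Among the DBHS genes, NONO (ENSG00000147140, GRCh38 chromosome X, 71283192 to 71301168, plus strand) had the steadiest mRNA of the 9. Its CPM was 518.5, 484.1 and 473.5 in the 3 NC libraries and 506.1, 503.8 and 507.5 in the 3 si-NEAT1_2 libraries. The si-NEAT1_2 values all lay inside the NC range. NONO's coefficient of variation over the 6 libraries was 3.35%, and 0.619% of the 5654 genes whose log2 CPM averaged 5 or more had a lower one, where the median gene had 14.1%. The log2 fold change was 0.04 (SE 0.116, 95% interval -0.22 to 0.3, edgeR adjusted p = 0.849), and its sign turned to -0.02 without TMM scaling. At the ends of the interval the si-NEAT1_2 level would be 0.861 and 1.23 times that of NC.

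SFPQ (ENSG00000116560, chromosome 1, 35176378 to 35193148, minus strand), which splices RNA and represses transcription besides its role in paraspeckles, had a CPM of 326.2, 343.5 and 322.4 in NC and of 327.0, 380.4 and 341.7 in si-NEAT1_2. Apart from the high value of si-NEAT1_2 replicate 2, the groups covered the same range. SFPQ had a log2 fold change of 0.08 (SE 0.12, 95% interval -0.18 to 0.34, edgeR adjusted p = 0.69).

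PSPC1 (ENSG00000121390, chromosome 13, 19674752 to 19783019, minus strand) is the DBHS member after which paraspeckles were first described. It was measured at 55.74, 56.31 and 55.2 CPM in NC and at 60.89, 65.89 and 56.61 CPM in si-NEAT1_2. The NC libraries were close together and every si-NEAT1_2 library was above them, the nearest by under 1 CPM. Its mean CPM was 55.8 ± 0.554 (SD, n = 3) and 61.1 ± 4.65, which is 9.65% higher, and the exact permutation test gave p = 0.1, the smallest that 3 libraries against 3 allow. PSPC1 had a log2 fold change of 0.13 (SE 0.122, edgeR adjusted p = 0.499). In FPKM the groups overlapped, at 24.2 to 25.68 in NC and 24.62 to 26.96 in si-NEAT1_2.

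The ratio between DBHS partners within a library does not depend on library scaling. SFPQ over NONO in FPKM was 0.438, 0.495 and 0.463 in NC and 0.453, 0.533 and 0.47 in si-NEAT1_2. PSPC1 over NONO was 0.125, 0.134 and 0.128 in NC and 0.137, 0.15 and 0.128 in si-NEAT1_2. The groups overlapped in both ratios and in PSPC1 over SFPQ, which lay between 0.271 and 0.303 in all 6 libraries. The log2 differences, si-NEAT1_2 minus NC, were 0.06, 0.1 and 0.04, with exact permutation p values of 0.6, 0.3 and 0.6 and an adjusted p over the 5 ratios tested of 0.75 for each of them.

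RBM14 (ENSG00000239306, chromosome 11, 66616582 to 66627347, plus strand) is a coactivator and splicing regulator that paraspeckles need to form. Its CPM was 105.6, 90.26 and 100.3 in NC and 104.7, 112.0 and 111.1 in si-NEAT1_2. The groups overlapped through NC replicate 1, which was above si-NEAT1_2 replicate 1. RBM14 had a log2 fold change of 0.15 (SE 0.12, edgeR adjusted p = 0.446). RBM14 shares 10722 bases on the same strand with the readthrough gene RBM14-RBM4, to which 21.83 to 70.96 counts per library were assigned against 2126.81 to 2896.37 for RBM14, and the split between them is uncertain.

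EWSR1 (ENSG00000182944, chromosome 22, 29268009 to 29300525, plus strand), known from its rearrangement in Ewing sarcoma, was at 265.1, 259.0 and 267.4 CPM in NC and at 267.8, 320.3 and 285.0 CPM in si-NEAT1_2. All si-NEAT1_2 libraries were above all NC libraries, but replicate 1 exceeded the highest NC library by under 1 CPM. EWSR1 had a log2 fold change of 0.14 (SE 0.12, edgeR adjusted p = 0.463), and the exact permutation p was 0.1. In FPKM the lowest si-NEAT1_2 library (126.68) was below the highest NC library (128.66). EWSR1 overlaps RHBDD3 on the other strand by 201 bases.

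TAF15 (ENSG00000270647, chromosome 17, 35713791 to 35864615, plus strand), whose protein also joins the TFIID complex at promoters, was at 139.2, 124.4 and 122.5 CPM in NC and at 137.9, 138.0 and 116.3 CPM in si-NEAT1_2. Its lowest library and its second highest both came from si-NEAT1_2. TAF15 had a log2 fold change of 0.02 (SE 0.126, 95% interval -0.25 to 0.3, edgeR adjusted p = 0.922), and it was -0.04 without TMM scaling. The annotated TAF15 gene overlaps AP2B1 by 12619 bases on the same strand, where 5801 to 8481 counts per library were assigned to AP2B1. It also overlaps RASL10B (same strand) and MMP28 (other strand), which had at most 53 counts in any library, and 3 further genes in the files with at most 1 count. TAF15 over EWSR1 in FPKM was 0.641, 0.568 and 0.536 in NC and 0.617, 0.481 and 0.466 in si-NEAT1_2, a log2 difference of -0.17 with overlapping groups (exact permutation p = 0.3, adjusted p = 0.75).

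DAZAP1 (ENSG00000071626, chromosome 19, 1407569 to 1435687, plus strand) encodes an RNA-binding protein that takes part in splicing and translation. It differed most of the 9 genes, at 220.4, 197.7 and 221.1 CPM in NC and 226.7, 294.0 and 262.8 CPM in si-NEAT1_2. All si-NEAT1_2 libraries were above all NC libraries, replicate 1 the least so. The mean was 213 ± 13.3 (SD, n = 3) in NC and 261 ± 33.7 CPM in si-NEAT1_2, 22.6% higher, and did not pass the adjusted threshold (log2 fold change 0.29, SE 0.132, edgeR p = 0.0482, adjusted p = 0.204, exact permutation p = 0.1). In FPKM the groups were also apart, at 104.03, 95.23 and 105.05 in NC and 107.73, 126.33 and 121.95 in si-NEAT1_2. Without si-NEAT1_2 replicate 2 the log2 fold change was 0.19, and over the 6 omissions of 1 library it ran from 0.19 to 0.38.

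The CFIm genes had a log2 fold change below 0 in the fit on all 6 libraries and after each omission of 1 library. No other member was below 0 in the full fit. CPSF6 (ENSG00000111605, chromosome 12, 69239537 to 69274358, plus strand) was at 86.35, 88.77 and 86.83 CPM in NC and at 85.45, 87.27 and 74.17 CPM in si-NEAT1_2. The groups overlapped, and the lowest CPM came from si-NEAT1_2 replicate 3. The log2 fold change of CPSF6 was -0.09 (SE 0.121, 95% interval -0.35 to 0.18, edgeR adjusted p = 0.674).

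NUDT21 (ENSG00000167005, chromosome 16, 56429133 to 56452199, minus strand), the subunit of CFIm that reads the RNA, varied most among the 9 genes, with a coefficient of variation of 15.8%. Its CPM was 153.3, 188.8 and 150.2 in NC and 163.3, 127.8 and 123.8 in si-NEAT1_2. In CPM, replicates 2 and 3 of si-NEAT1_2 were below all NC libraries and replicate 1 was not. In FPKM, si-NEAT1_2 replicate 2 (49.74) was above NC replicate 3 (48.03). The mean CPM was 164 ± 21.4 and 138 ± 21.7 (SD, n = 3), with a log2 fold change of -0.25 (SE 0.149, 95% interval -0.57 to 0.08, edgeR adjusted p = 0.307). Without si-NEAT1_2 replicate 1 it was -0.39 (adjusted p = 0.105). NUDT21 overlaps OGFOD1 on the other strand by 710 bases.

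CPSF6 over NUDT21 in FPKM was 0.553, 0.546 and 0.611 in NC and 0.543, 0.598 and 0.595 in si-NEAT1_2. The groups overlapped, with a log2 difference of 0.02 (exact permutation p = 1.0), and of 0.16 when the ratio was taken from counts. CPSF7, the alternative large subunit, was at 85.9, 84 and 84.5 CPM in NC and at 79.9, 79.2 and 83.9 CPM in si-NEAT1_2. Its groups did not overlap, and its log2 fold change was -0.07 (edgeR adjusted p = 0.733).

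**Figure D2:**
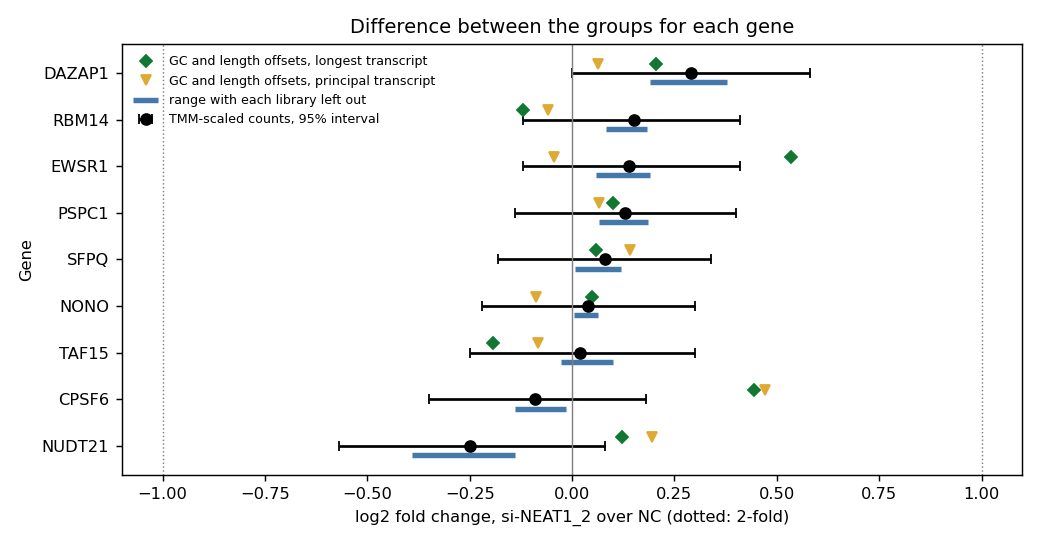
Log2 fold change of si-NEAT1_2 over NC (x axis) for the 9 genes (y axis); black points with bars give the edgeR estimate and its 95% interval, blue bars the range when each library is left out, and green and yellow marks the estimate after correction for GC content and length. All 9 black intervals lie inside the dotted 2-fold lines; after the correction CPSF6 moves from -0.09 to 0.44 or 0.47, and EWSR1 to 0.53 or -0.04, depending on the transcript.

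The count and the FPKM value of a gene together imply the transcript length by which the authors' FPKM was divided. For SFPQ this length was 3747 bases in all 6 libraries, which is the length of its longest annotated transcript, and for DAZAP1 it was 2143 to 2146 bases. The implied length of NUDT21 was 2721, 3509 and 3188 bases in NC and 3165, 2370 and 3001 bases in si-NEAT1_2. The highest of these was 1.48 times the lowest, and 98.4% of the 5141 genes with at least 10 FPKM in the libraries had a smaller spread, where the median gene had 1.05. The libraries with the longest and the shortest length were NC replicate 2 and si-NEAT1_2 replicate 2, but the groups overlapped. CPSF6 had implied lengths of 2704 to 3052 bases, far under its longest transcript of 7525 bases.

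**Figure D3:**
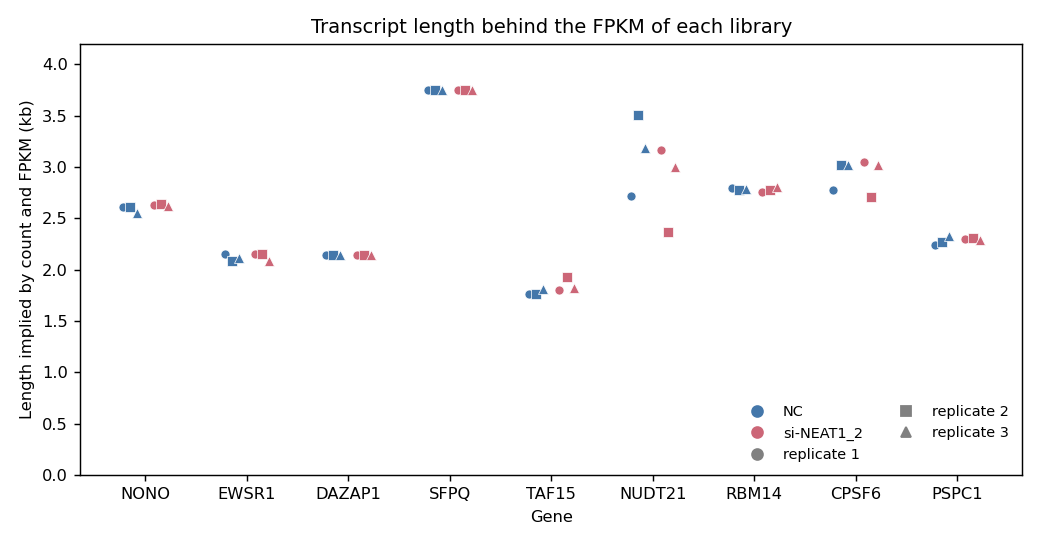
Transcript length implied by the count and FPKM of each library (y axis, kb, from 0) for the 9 genes (x axis), with 3 NC and 3 si-NEAT1_2 libraries as points. SFPQ lies at 3747 bases in all 6 libraries, while NUDT21 runs from 2370 to 3509 bases with both groups overlapping.

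The 2 genes with a log2 fold change below 0 were also those poorest in GC. CPSF6 and NUDT21 had a GC content of 37.5% and 37.4% of the longest transcript, and RBM14 had the highest, 59.4%. Neither gene passed the adjusted threshold, and the part of GC content in their log2 fold changes was not tested. When trends with GC content and length of the longest transcript were removed per library, CPSF6 went to 0.44 (edgeR adjusted p = 0.281) and NUDT21 to 0.12. RBM14 went to -0.12 and EWSR1 to 0.53 (edgeR adjusted p = 0.227). EWSR1 has a longest transcript of 7285 bases with 42.4% GC and a principal one of 2189 bases with 54.7% GC, and its implied length of 2085 to 2155 bases was close to the latter. With the principal transcripts EWSR1 was at -0.04, CPSF6 at 0.47 and NUDT21 at 0.20. The principal transcript of CPSF6 has 6616 bases and its longest 7525, both far above its implied length of 2704 to 3052 bases. For NUDT21 both are the same length, 4436 bases. For these genes the principal transcript is therefore no closer check than the longest. DAZAP1 went from 0.29 to 0.20 (edgeR adjusted p = 0.335) with the longest transcripts and to 0.06 (edgeR adjusted p = 0.726) with the principal ones. Its implied length of 2143 to 2146 bases was close to its principal transcript of 2160 bases and not to its longest of 3943 bases. DAZAP1, PSPC1 and SFPQ had a log2 fold change above 0 under all 17 alternatives to the fit, down to 0.0632, 0.0521 and 0.00628 at the lowest.

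The labels carry an L number for each library whose meaning they do not give, 3, 2 and 2 in NC and 4, 2 and 3 in si-NEAT1_2. Within L number 2 (2 NC libraries and 1 si-NEAT1_2 library) and within L number 3 (1 of each), the log2 CPM difference of DAZAP1 was 0.49 and 0.25, and that of NUDT21 was -0.4 and -0.31. EWSR1 differed by 0.28 and 0.1, PSPC1 by 0.24 and 0.02, RBM14 by 0.24 and 0.07, and SFPQ by 0.19 and 0.07. TAF15 differed by 0.16 and -0.26, and NONO by 0.07 and -0.03, in opposite directions. CPSF6 differed by -0.01 and -0.22. L number 4 held a library of si-NEAT1_2 alone.

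A wider list of 28 other genes of paraspeckle proteins had 27 tested, CELF6 being too low, as 28 rows because MATR3 is listed under 2 identifiers. Of these rows 0 were called, against 0.0% of all 13109 genes tested. At an unadjusted p under 0.05, 0 were higher and 3 (10.7%) lower, against 11.2% and 12.9% of all genes. The 3 were SS18L1, a chromatin remodelling subunit (log2 fold change -0.72, edgeR adjusted p = 0.17), MATR3, the nuclear matrix protein matrin 3 (-0.39, adjusted p = 0.173), and SRSF10, a splicing factor (-0.31, adjusted p = 0.198). SS18L1 was at 11.9, 15.5 and 12.5 CPM in NC and at 9.8, 6.85 and 7.52 CPM in si-NEAT1_2, with no overlap. The other MATR3 identifier had a log2 fold change of -0.5 with overlapping groups (adjusted p = 0.219). The list's median log2 fold change was -0.1. The si-NEAT1_2 libraries lay below all NC libraries in 8 of 28 rows (28.6%) and above them in 1 (3.57%), against 14.1% and 15.4% of all genes. The longest transcripts of those 8 had a GC content of 35.3% to 51.4%, and with the GC and length correction the list's median was -0.0083. Some rows with overlapping groups were in that range too, such as RBMX at 39.2% and HNRNPK at 42.3%. Others were above it, such as AHDC1 at 64.3%. The part of GC content in the 8 was not tested.

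Of 17 genes of 3′ end processing, the machinery with which CFIm works, 0 were called, against 0.0% of all genes. At an unadjusted p under 0.05, 1 (5.88%) was higher and 3 (17.6%) were lower, against 11.2% and 12.9% of all genes. The si-NEAT1_2 libraries lay below all NC libraries for 4 of the 17 (23.5%) and above them for 2 (11.8%), against 14.1% and 15.4% of all genes. CPSF7 is in both lists and was counted as below in each. Its lowest NC library was at 84 CPM and its highest si-NEAT1_2 library at 83.9 CPM. The 3 lower ones were RBBP6, a polyadenylation factor and ubiquitin ligase (log2 fold change -0.82, edgeR adjusted p = 0.17), PCF11, a transcription termination factor (-0.8, adjusted p = 0.17), and CPSF2, a subunit of the cleavage complex (-0.43, adjusted p = 0.172). RBBP6 was at 35.1, 53 and 37.9 CPM in NC and at 28.9, 17.1 and 25.5 CPM in si-NEAT1_2, and the groups did not overlap. For PCF11 they did, at 22.6, 36.6 and 25.2 CPM against 23.2, 10.3 and 14.7 CPM. Without si-NEAT1_2 replicate 1, PCF11 was called (log2 fold change -1.18, edgeR adjusted p = 0.0493). The share of all genes called in that fit was not counted, so this call has no background to set it against. The gene that was higher, named after its values were seen, was CPSF4 (0.4, adjusted p = 0.205). The list's median log2 fold change was 0.01, the same as that of all genes.

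The genes whose log2 CPM followed a DBHS gene most closely over the 6 libraries, among the 5644 named genes at an average log2 CPM of 5 or more, were not its partners. Pearson's r with NONO was highest for RNF4, a SUMO-targeted ubiquitin ligase (0.971), and RPN2, a subunit of the oligosaccharyltransferase (0.957). With SFPQ it was highest for MRPS9, a protein of the mitochondrial ribosome (0.964), and PSRC1 (0.96), and with PSPC1 for NIF3L1 (0.994) and TXNL1 (0.993). Between the partners r was 0.144 for NONO and SFPQ, 0.299 for NONO and PSPC1, and 0.769 for SFPQ and PSPC1. The best genes were picked as the highest of 5644 values of r each. That they exceeded the partners therefore does not show whether partners vary together. These are descriptions over 6 libraries, and every gene's values in a library come from the same library with its own depth and scaling factor.

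The authors' group table gives 1 value per group, with no replicate, and the labels do not say from which libraries. Of its counts above 0, 86.1% in NC and 86.3% in si-NEAT1_2 were whole numbers when multiplied by 3, as means of 3 would be. This held for 8 of the 9 members in each group. Its counts summed to 17678761 in NC and 19579897 in si-NEAT1_2, below the lowest library total of 22798631. In that table TAF15 was 130.2 FPKM in NC and 11.88 FPKM in si-NEAT1_2, a ratio of 0.0912, from counts of 4242.33 and 435.67. RBM14 was 34.27 and 77.18 FPKM, 2.25-fold higher. The other 7 genes differed by less than 2-fold, the furthest being NUDT21 at 38.42 and 24.71 FPKM (a ratio of 0.643). Of the 11055 genes with at least 1 FPKM in either group, 3.43% were at least 2-fold higher and 14.0% at least 2-fold lower, against 1 and 1 of these 9.

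The libraries did not show those differences. TAF15 ran from 63.38 to 79.97 FPKM over all 6 libraries, so the NC value of the table was above every NC library and the si-NEAT1_2 value below every si-NEAT1_2 library. RBM14 ran from 33.55 to 39.33 FPKM, with the NC value of the table inside the NC range and the si-NEAT1_2 value above every si-NEAT1_2 library. RBM4, the neighbour that shares the readthrough transcript with RBM14, was at 77.01 and 155.17 FPKM in NC and si-NEAT1_2 of the table and was at 49.52 to 65.27 FPKM in the libraries. NONO, SFPQ, PSPC1, DAZAP1, CPSF6 and NUDT21 were below the libraries' range in both groups of the table, and EWSR1 was above it in both.

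In all, 8 of 9 NC values and 9 of 9 si-NEAT1_2 values of the table were outside the range of the libraries of their group, against 87.5% of 11679 genes and 80.8% of 11385 genes, these being the genes at 1 FPKM or more in that group of the table or in the mean of its libraries. KRT7, an epithelial keratin, was at 684 to 914 FPKM in the libraries and at 1.66 and 0.693 FPKM in the table, and KRT19 at 0.18 to 0.7 FPKM in the libraries and at 29.8 and 26.7 FPKM in the table. The ratio of TAF15 over EWSR1 was 0.848 and 0.0852 in NC and si-NEAT1_2 of the table. For CPSF6 over NUDT21 it was 0.534 and 0.75, and for PSPC1 over SFPQ 0.198 in both. The table thus differed from the libraries for nearly all members and for markers of the cells, and its values were not means of the deposited library values. Whether it was made from these libraries in another way is not known. Its values for TAF15 and RBM14 rest on the table alone.

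**Figure D4:**
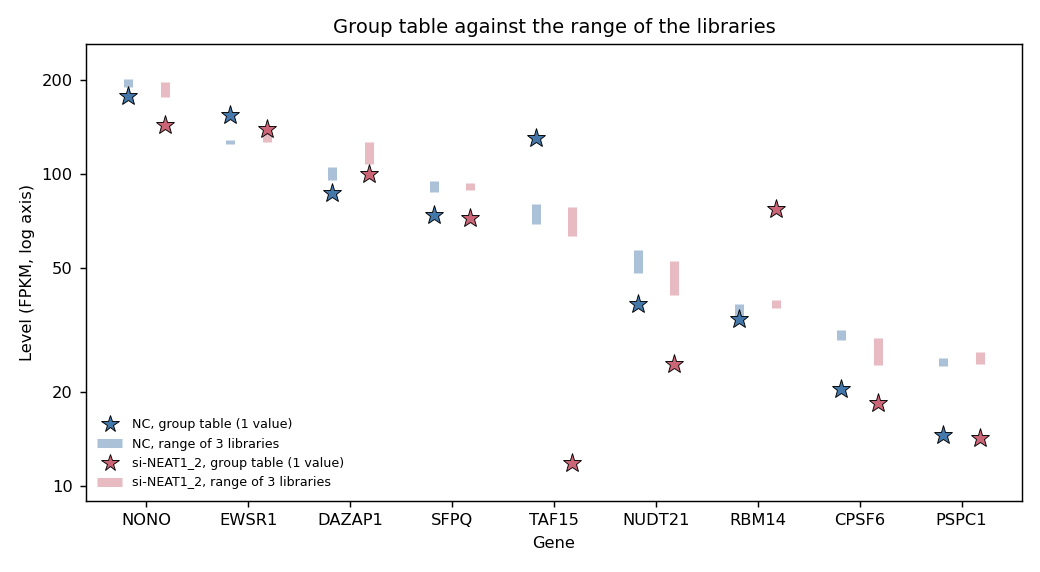
Level in FPKM (y axis, log scale) of the 9 genes (x axis); bars span the 3 libraries of each group and stars give the single value per group in the authors' table. The TAF15 stars lie at 130.2 and 11.88 FPKM, on either side of libraries that run from 63.38 to 79.97 FPKM, and the si-NEAT1_2 star of RBM14 lies at 77.18 FPKM above its libraries.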

How the data were processed

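The 9 genes and the 2 further lists were chosen with earlier results of these data known. Per the study's methods, the authors mapped reads of oligo(dT)-selected, rRNA-depleted RNA with TopHat2 and quantified them with RSEM, while the submitters' processing notes name fastp 0.18.0, Bowtie2 2.2.8, HISAT2, StringTie 1.3.1 and GRCh38. The expected counts the authors deposited are not normalized, with 9.19% to 9.61% of values per library not whole. Their deposited FPKM divides these by transcript length and library total. Totals of 22798631 to 27066025 counts per library set the depth. The number of unmapped columns of per-sample values was 0. No 2 libraries were alike within sampling noise (chi-square per degree of freedom of at least 13.4 within groups).

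Expected counts were rounded, filtered with filterByExpr (13109 genes), scaled by TMM and tested with edgeR 4.0.16 (quasi-likelihood test, Benjamini-Hochberg over all genes) in R 4.3.3. CPM uses a prior count of 2 on the log2 scale. For ratios and the CPM of single genes, exact permutation tests (two-sided) were run in SciPy 1.17.1. Alternatives were DESeq2 1.42.0 and its size factors, no TMM, no filter, limma-trend 3.58.1 on log2(FPKM + 1) or log2(FPKM + 0.1), a replicate block, the L number, splines of GC content and length (5 degrees of freedom), and the omission of each library. The same splines for principal transcripts, and the group table's background without a minimum of 1 FPKM, were added after the data were seen. Positions, lengths and GC content are from GENCODE release 29.

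Genes named are the 9, the 2 best correlated with each DBHS gene, the 3 of each list with the lowest p, and CPSF7. A further gene of this rule is not reported here. Cell markers and overlapping genes are named beside the results they touch, and other exceptions where they stand.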

Additional observations from a re-analysis of the deposited data

How the results depend on the processing

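Shares of all genes tested were not counted under the alternative fits, so the numbers of genes given below for them have no background. No alternative made a call among the 9 genes. The number higher at an unadjusted p under 0.05 was 0 with DESeq2's size factors, no TMM, no filter, DESeq2, either limma-trend fit and the replicate block, and 2 (EWSR1 and CPSF6) with GC and length offsets. Omitting 1 library gave 0 to 1 higher (DAZAP1, without si-NEAT1_2 replicate 1) and 0 to 1 lower (NUDT21, without the same library). The median log2 fold change was 0.0139 without TMM, 0.0143 and 0.0144 with limma-trend (pseudocounts 1 and 0.1), 0.139 with the L number and 0.0333 to 0.119 over the omissions, lowest without si-NEAT1_2 replicate 2. The study's methods speak of pairs of cells without saying what a pair shared, and the replicate numbers were not taken as pairs, since the deviations of same-numbered libraries had correlations of -0.282, -0.365 and -0.00797. Under the replicate block DAZAP1 had a log2 fold change of 0.287 (edgeR adjusted p = 0.428), and the SFPQ/NONO, PSPC1/NONO, PSPC1/SFPQ, CPSF6/NUDT21 and TAF15/EWSR1 ratios differed by 0.0596, 0.0993, 0.0397, 0.022 and -0.165.

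Of the log2 fold changes that turned sign, NONO was -0.0224 without TMM, -0.045 and -0.0452 with limma-trend and -0.087 with GC and length offsets of the principal transcript. TAF15 was -0.0412 without TMM, -0.0971 and -0.0983 with limma-trend, -0.0175 with the L number and -0.0277 to 0.1 over the omissions. With GC and length offsets, these with the replicate block, and those of the principal transcript, TAF15 was -0.194, -0.198 and -0.0827, RBM14 -0.12, -0.121 and -0.0585, CPSF6 0.445, 0.421 and 0.471, and NUDT21 0.121, 0.12 and 0.195. EWSR1 was -0.0432 with the principal transcript. Over the omissions the ratios ranged from -0.00916 to 0.107 for SFPQ/NONO, -0.00459 to 0.0748 for PSPC1/SFPQ and -0.00778 to 0.073 for CPSF6/NUDT21.

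In the wider paraspeckle list the number lower was 5 without TMM or without the filter, 6 and 7 with limma-trend (pseudocounts 1 and 0.1), 1 with offsets and replicate block, and 1 to 6 over the omissions (1 without NC replicate 2, 6 without si-NEAT1_2 replicate 1). The number higher was 1 with the L number, 3 with GC and length offsets, 1 with these and the replicate block, 2 with those of the principal transcript and 0 to 1 over the omissions. Its median was -0.163 without TMM, -0.197 with limma-trend and pseudocount 0.1, and -0.0083, -0.0123 and -0.038 with the 3 offsets. In the 3′ end list the number higher was 0 with DESeq2's size factors, no TMM, both limma-trend fits, the replicate block and the L number, and 0 to 1 over the omissions. Its median was -0.0542 without TMM, -0.052 and -0.0542 with limma-trend, 0.0654 with the L number and -0.0786 to 0.0566 over the omissions. The omissions gave 1 to 4 lower and 0 to 1 called, the latter without si-NEAT1_2 replicate 1. In the group table, 6.62% of genes were at least 2-fold higher and 19.2% at least 2-fold lower when any value above 0 was kept. The cause of these changes was not tested. With 3 libraries per group, the exact tests cannot go below 0.10.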
